A study of Mus musculus with 46 samples.

Results

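The genes of coenzyme Q synthesis were followed across pancreatic islets and livers of mice carrying knockouts of mitochondrial genes. The set comprised Pdss1, Pdss2, Coq2, Coq3, Coq4, Coq5, Coq6, Coq7, Coq8a and Coq9. They were taken by gene symbol as genes known to act in the pathway, and made up 10 of the 55487 genes in the tables. Each symbol was found at 1 gene identifier, and all 10 genes passed the filter on low counts in each of the 3 experiments.

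Coenzyme Q, or ubiquinone, is a lipid of the inner mitochondrial membrane. It takes electrons from complex I, complex II and several other dehydrogenases and hands them to complex III, and it also serves as an antioxidant. The molecule joins a ring to a long polyprenyl tail. Pdss1 and Pdss2 form the enzyme that builds the tail from isoprenoid units of the mevalonate pathway. Coq2 attaches the tail to the ring precursor. Coq3 and Coq5 are methyltransferases and Coq6 and Coq7 are hydroxylases that then modify the ring. Coq4 is needed for the complex of these enzymes and acts on the ring itself. Coq9 binds lipid and presents the intermediate to Coq7, and Coq8a is an atypical kinase-like ATPase that the complex needs, with Coq8b as its paralogue. Both tissues rely on oxidative phosphorylation, the beta cell to couple glucose to insulin release and the hepatocyte to fuel its synthetic work.

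RNA was measured in 46 libraries of 11 groups. The Tfam islets comprised 5 Tfam control and 4 Tfam KO libraries from females and 3 Tfam control and 2 Tfam KO libraries from males. In the Clec16a experiment there were islets of 4 Clec control and 4 Clec16a KO libraries on a diet labelled RFD, and 6 Clec control and 5 Clec16a KO libraries on a diet labelled HFD. Among the livers were 6 control libraries, 4 of Mfn DKO and 3 of Tfam KO, all with AAV in their descriptions. Tfam encodes the factor that packages and transcribes mitochondrial DNA. Clec16a acts in mitophagy, the clearance of damaged mitochondria. Mfn1 and Mfn2 encode mitofusins, which fuse the outer membranes of mitochondria. The labels give neither the strain, the age, the alleles, the agent or promoter that drove deletion, nor the meaning of RFD, HFD and AAV, and they give no sex for single Clec16a islet or liver libraries. Islets had spent a night in culture and livers had been snap frozen when RNA was taken. The libraries are numbered as biological replicates, and nothing says more of the animals behind them, so p-values measure the spread between libraries.

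Levels are given as CPM, the counts of a gene scaled to a common library size. A library held 55223041 to 83342809 counts in the Tfam islet experiment, 16235173 to 55810879 in that on Clec16a and 41961114 to 56894510 among livers. Tfam was lower in Tfam KO islets (log2 fold change -1.21, edgeR adjusted p = 3.76e-10) and in Tfam KO livers, at 13.1 to 15.9 CPM beside 54.1 to 66.2 CPM in controls (edgeR adjusted p = 1.39e-06). In Mfn DKO livers Mfn1 was lower, at 15.6 to 25.3 beside 67.8 to 88.3 CPM, as was Mfn2 (log2 fold change -2.04). Clec16a itself was not called lower in the libraries labelled Clec16a KO, at 0.13 on RFD and 0.08 on HFD, so its counts do not check those labels. Summed over 8 beta cell markers such as Ins1 and Ins2, islets held 106000 to 348000 CPM and livers 93.5 to 498 CPM. Summed over 8 hepatocyte markers such as Alb, livers held 22400 to 137000 CPM and islets 1360 to 6560 CPM. Tfam KO liver replicate 3 stood apart. It had 93100 CPM of the hepatocyte markers, against 59200 and 22400 CPM in replicates 1 and 2 and 92100 to 137000 CPM in controls, although Tfam was low in all 3. Counts of called genes in Tfam KO livers are given with and without that library. Liver libraries were also mixed in Xist, the transcript of the inactive X chromosome: control replicates 3, 4 and 5 had 380.1 to 615 CPM, and replicates 1, 2 and 6 had 0.211 to 0.296 CPM with 89.5 to 94.5 CPM of the Y-linked Ddx3y. Tfam KO liver replicate 1 had 0.704 CPM of Xist, and replicates 2 and 3 had 781 and 787 CPM. The controls high in Xist had 119000 to 137000 CPM of the hepatocyte markers, and Tfam KO replicate 3 lay below them. All 19 Clec16a islet libraries had 302 to 534 CPM of Xist and 0 counts of Ddx3y, so by these transcripts they read as female.

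The members that changed in a knockout are Coq3 and Coq5 in Tfam islets and Pdss1 and Coq4 in Tfam KO livers. RefSeq windows of the 250 bases before the transcription start were found for 9 of the 10 members, Coq5 not among them. Those of Coq3, Pdss1 and Coq4 are shown because they stand before the called members for which a window was found. They are given 5′ to 3′ on the gene's strand, on GRCm38.p6, at chr4:21879396-21879645 for Coq3, chr2:22895272-22895521 for Pdss1 and chr2:29787243-29787492 for Coq4, all on the plus strand. Capitals mark the AAGGTCA motif.
Coq3: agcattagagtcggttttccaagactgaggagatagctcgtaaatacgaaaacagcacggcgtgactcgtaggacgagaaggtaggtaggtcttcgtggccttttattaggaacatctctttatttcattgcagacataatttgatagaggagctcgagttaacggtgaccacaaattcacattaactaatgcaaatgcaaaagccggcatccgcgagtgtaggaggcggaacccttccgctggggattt
Pdss1: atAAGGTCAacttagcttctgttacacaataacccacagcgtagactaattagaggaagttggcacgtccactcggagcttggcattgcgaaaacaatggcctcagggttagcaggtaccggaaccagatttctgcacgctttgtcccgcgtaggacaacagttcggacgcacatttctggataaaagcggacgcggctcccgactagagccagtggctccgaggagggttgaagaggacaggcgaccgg
Coq4: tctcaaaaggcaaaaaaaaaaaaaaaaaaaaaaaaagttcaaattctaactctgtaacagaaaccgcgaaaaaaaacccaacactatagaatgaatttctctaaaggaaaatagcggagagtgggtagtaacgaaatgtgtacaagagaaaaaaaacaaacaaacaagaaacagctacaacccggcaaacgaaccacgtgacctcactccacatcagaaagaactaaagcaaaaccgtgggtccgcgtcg

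The windows were searched on both strands for the letters TGATGNAA, TGACGTCA, GCATGCGC, CCGGAAG and AAGGTCA, core motifs of the ATF4, CREB, NRF1, ETS and ERR families of factors. Among the called members, Pdss1 had AAGGTCA from -248 to -242 relative to the start, and Coq3 and Coq4 had none of the 5. Of the others, Coq2 had GCATGCGC from -49 to -42 and Pdss2 had CCGGAAG from -118 to -112. Of all 32851 windows of this length, 4.08% held AAGGTCA, 2.26% GCATGCGC, 6.91% CCGGAAG, 3.45% TGATGNAA and 1.55% TGACGTCA. A match describes the letters and is not a measured binding site. The Pdss1 window also overlaps an exon of the pseudogene A130006I12Rik on the other strand.

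By the annotation of GRCm38, the 10 members are protein-coding genes. Pdss1 (ENSMUSG00000026784) lies on chromosome 2, 22895522 to 22940266, plus strand, and Coq4 (ENSMUSG00000026798) on the same chromosome, 29787493 to 29797935, plus strand. Coq3 (ENSMUSG00000028247) lies on chromosome 4, 21879673 to 21912162, plus strand. Coq5 (ENSMUSG00000041733) lies on chromosome 5, 115279666 to 115296972, plus strand, and Coq2 (ENSMUSG00000029319) on chromosome 5, 100654723 to 100675140, minus strand. Coq8a (ENSMUSG00000026489) lies on chromosome 1, 180165238 to 180199602, minus strand. Coq4 shares 27.1% of its exonic bases with the antisense gene Trub2, Pdss1 9.44% with A130006I12Rik and Abi1, and Coq8a 6.92% with Cdc42bpa. Whether the counting used strand is not given in the sources used here, so reads there could not be assigned with certainty. Coq2, Coq3, Coq5 and Coq7 share no exonic base with another gene.

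Levels were first ranked within control groups by TPM, which corrects for gene length and is scaled to 1 total per library. In female Tfam control islets the order by median was Coq2 at 43.2 TPM (36.1 to 49.6 over 5 libraries), Coq9 at 28.2 (22.2 to 30.2), Coq5 at 15.4 (10.7 to 18.1), Coq8a at 14.8 (13.2 to 19.5) and Coq6 at 8.23 (7.37 to 10.1). Coq7 at 5.12, Coq4 at 4.87, Pdss2 at 2.71 and Coq3 at 2.61 followed, and Pdss1 was lowest at 1.03 TPM (0.739 to 1.24). The ranges of Coq5 and Coq8a, of Coq7 and Coq4 and of Pdss2 and Coq3 overlapped, and Coq2 lay above Coq9 and Pdss1 below Coq3 with no overlap. In Clec control islets on RFD, Coq9 at 33.3 TPM (31.6 to 37.9 over 4 libraries) and Coq2 at 31.2 (26.5 to 38.3) led with overlapping ranges, and Pdss1 was again last at 1.18 (1.01 to 1.76). The 2 subunits of the tail-building enzyme were thus among the 3 lowest members in both islet controls.

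Control liver had another order. Coq9 led at 92.3 TPM (86.5 to 95.0 over 6 libraries), overlapping with Coq8a at 79.9 (44.6 to 111), followed by Coq2 at 39.8 (37.6 to 44.2), Coq5 at 25.7 (25.0 to 27.4) and Coq3 at 18.2 (15.2 to 19.2). Coq7 at 11.7 and Coq6 at 11.6 overlapped, as did Coq4 at 4.40 (4.13 to 5.63) and Pdss2 at 4.12 (3.14 to 4.57), and Pdss1 stood last at 1.73 (1.45 to 1.89). Coq3 stood among the 3 lowest members in both islet controls and at the fifth place in liver. Islets and livers were separate experiments, so tissue and experiment cannot be told apart, and no test was made between them.

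Islets lacking Tfam were set against controls of both sexes, to ask how the pathway's transcripts stood after loss of Tfam. The 2 methyltransferases Coq3 and Coq5 rose, and no member fell by edgeR. CPM values here are scaled by TMM within each experiment, and a gene was called at a Benjamini-Hochberg adjusted p of 0.05 or less over all genes tested with edgeR's quasi-likelihood F-test. By that rule 2 of the 10 members were called, both higher, in a comparison where 20.9% of all genes were called and 11.6% were called higher, so the members' share lies near the background.

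Coq5, which methylates a ring carbon, was the member whose KO and control libraries did not overlap. In female controls it stood at 23.8, 22.6, 18.0, 19.4 and 21.2 CPM, and in female Tfam KO islets at 29.8, 27.1, 27.4 and 28.1 CPM. In male controls it stood at 24.2, 23.2 and 20.9 CPM, and in male Tfam KO islets at 30.6 and 31.7 CPM. Every KO library lay above every control library of either sex. The group values in CPM were 21.7 ± 2.20 (SD, n = 8) for controls and 29.1 ± 1.86 (SD, n = 6) for KO, a 1.35-fold increase (log2 fold change 0.43, SE 0.06, edgeR adjusted p = 0.000178). Within females it rose by 0.42 (SE 0.08, edgeR adjusted p = 0.00409), and within males by 0.45 (SE 0.11, edgeR adjusted p = 0.0198).

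Coq3, the O-methyltransferase that acts on the ring in an earlier and in the final step, is a lower transcript. Female controls had 4.24, 3.40, 4.63, 4.43 and 3.55 CPM and female KO islets 4.86, 5.23, 6.48 and 4.14 CPM. Male controls had 2.99, 3.36 and 3.93 CPM and male KO islets 5.81 and 6.05 CPM. The male groups did not overlap, whereas female KO replicate 4 lay below 3 of the 5 female controls. Over both sexes Coq3 rose 1.43-fold (log2 fold change 0.51, SE 0.13, edgeR adjusted p = 0.0086), with means of 3.82 ± 0.583 CPM (SD, n = 8) among controls and 5.43 ± 0.857 CPM (SD, n = 6) among KO libraries, values that rest on 191 to 513 counts per library. In males alone it rose by 0.79 (SE 0.20, edgeR adjusted p = 0.0209), and in females alone the change was 0.35 (SE 0.15, edgeR adjusted p = 0.148).

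The other 8 members were not called over both sexes, with log2 fold changes from 0.00 for Pdss2 to 0.35 for Coq8a and edgeR adjusted p from 0.0512 for Coq2 to 0.982. Coq2 was called by the Wald test of DESeq2 (0.14, DESeq2 adjusted p = 0.0351). By edgeR it was called over genes with at least 10 counts in every library, with the acinar covariate and with no sex term (edgeR adjusted p = 0.0415, 0.0414 and 0.05). It was also called without female control replicate 2 or 4, male control replicate 1 or female KO replicate 2 (edgeR adjusted p = 0.0313 to 0.049). Coq8a was called with no filter on low counts (0.35, edgeR adjusted p = 0.0406) and without female control replicate 4 (0.39, edgeR adjusted p = 0.0438). Coq2, the transferase that joins tail and ring, lay at 50.3 to 58.3 CPM in controls and 56.6 to 66.4 CPM in KO, and Coq9 at 37.9 to 45.1 and 42.3 to 46.1 CPM. The Tfam KO and control ranges of the hydroxylases Coq6 and Coq7 and of Pdss1, Pdss2 and Coq4 overlapped over both sexes. The members' median log2 fold change was 0.13, beside -0.01 over all genes tested. It was at or above 0 for all 10, and for 9 of 10 with the size factors or the Wald test of DESeq2.

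In females 1 of 10 members was called, higher, in a comparison with 10.8% of all genes called and 6.67% called higher. In males 2 of 10 were called, both higher, with 8.93% and 5.24% of all genes. No member had an interaction of genotype with sex by edgeR (0 of 10 called, 0 at an unadjusted p of 0.05, 0 by the Wald test of DESeq2, and 0% of all genes called). The interaction ran from -0.50 (SE 0.27) for Pdss1 to 0.44 (SE 0.25) for Coq3. The male groups have 3 and 2 libraries: Coq3 lost its call there without control male replicate 1 or 2 or either KO male library (edgeR adjusted p = 0.0655 to 0.141), and Coq5 without control male replicate 2 or 3 or either KO male library (0.0545 to 0.156).

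Markers of cell types moved with genotype. All 8 beta cell markers were called lower over both sexes, and their sum was 188000 to 295000 CPM in female controls and 106000 to 141000 CPM in female KO islets. In males it was 253000 to 267000 CPM in controls and 129000 CPM in both KO libraries. Over both sexes 2 of 3 delta markers were called lower, and 2 of 7 fibroblast, 1 of 8 macrophage and 1 of 5 duct markers higher. In males, where Coq3 was called as well, 3 of 7 fibroblast, 3 of 8 macrophage, 2 of 5 duct and 1 of 7 endothelial markers were called higher. The male fibroblast sum was 31.9 to 45.8 CPM in controls and 81.3 to 84.4 CPM in KO islets, and the macrophage sum 120.0 to 130.1 and 198 to 207 CPM. The acinar marker sum was 1930 to 5020 CPM in female and 4580 to 23000 CPM in male KO islets, and 1280 to 12800 and 2720 to 8130 CPM in their controls. In such bulk samples, fewer cells of a type and less RNA per cell cannot be told apart, and the part of these changes in the members' values was not tested. Scaling matters too: with library totals and no TMM, the median of all genes moved up by 0.21, 6 members were called, all higher, where 31.4% of all genes were called higher, and the calls over all genes shifted from 2285 higher and 1834 lower to 6208 and 617.

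**Figure D1:**
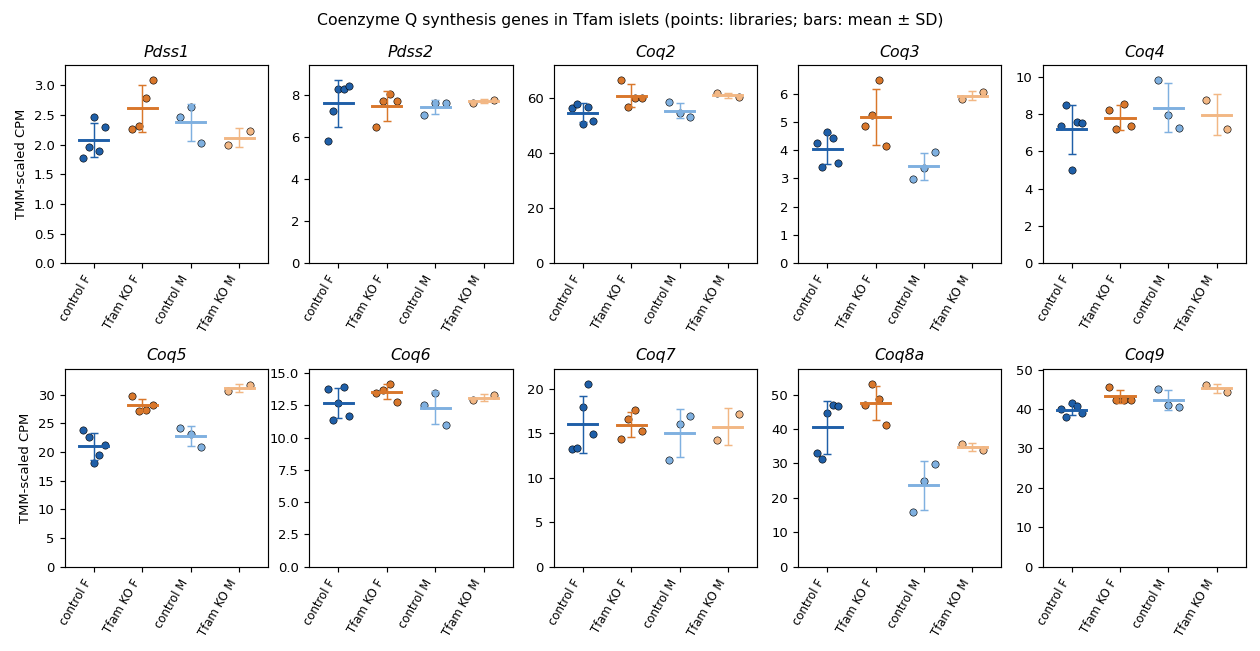
Levels of the 10 members in the Tfam islets, in TMM-scaled CPM, by sex and genotype. Points are libraries, horizontal bars means and error bars SD. Coq5 lies at 27.1 CPM or more in each of 6 Tfam KO libraries and at 24.2 CPM or less in each of 8 controls.

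Coq8a, the kinase-like member, differed between the sexes among controls, a comparison added after its values were seen. Female controls had 32.9, 31.2, 44.5, 46.9 and 46.8 CPM and male controls 16.0, 24.8 and 29.9 CPM, with no overlap. The level was 1.72-fold lower in males (log2 fold change -0.78, SE 0.18, edgeR adjusted p = 0.0463), and it was the 1 of 10 members called, where 1.53% of all genes were called and 0.78% were called lower in males. In Tfam KO islets females had 47.1, 53.2, 48.7 and 41.2 CPM and males 35.6 and 34.0 CPM. Both male KO libraries lay above all 3 male controls, yet the change with genotype in males was not called (0.56, SE 0.22, edgeR adjusted p = 0.129). Alpha and delta cell markers moved with sex as well: 3 of 5 alpha and 3 of 3 delta markers were called lower in males, and the alpha sum was 49700 to 106000 CPM in female and 24700 to 34400 CPM in male controls. Their part in the Coq8a value was not tested. The call was lost without female control replicate 3, 4 or 5 or male control replicate 1 or 2 (edgeR adjusted p = 0.0788 to 0.188, with a log2 fold change of -0.56 without male replicate 1).

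Clec16a KO islets were compared with their controls on each diet. No member was called in any of the 5 Clec16a comparisons by edgeR, and none by the Wald test of DESeq2. The background was 7.52% of all genes on RFD, 9.58% on HFD, 0.0406% for HFD against RFD in controls, 0.0116% for the diets in KO islets and 0% for the interaction. At an unadjusted p of 0.05 the members counted were 0, 0, 0, 1 and 0. On RFD the log2 fold changes ran from -0.31 for Coq8a to 0.18 for Coq9, with SEs from 0.10 to 0.21. On HFD they ran from -0.16 for Coq5 to 0.14 for Coq9, with SEs from 0.09 to 0.18.

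The Clec16a values show how close the groups lay. Coq3 had 4.64, 4.44, 2.95 and 3.91 CPM in Clec control and 3.49, 4.57, 4.55 and 4.36 CPM in Clec16a KO islets on RFD. Coq5 had 23.7, 19.9, 21.5 and 21.0 CPM in the control and 17.9, 16.9, 22.5 and 23.1 CPM in the KO islets on RFD. Both pairs of groups overlapped, unlike Coq5 in the Tfam islets, and the difference between the 2 knockouts was not tested because the experiments were fitted apart. Coq8a had 29.5, 41.0, 41.4 and 38.4 CPM in controls and 39.4, 29.9, 23.7 and 29.1 CPM in KO islets on RFD, and 32.2 to 39.0 CPM and 29.5 to 48.1 CPM on HFD. It was the member with an unadjusted p of 0.05 or less between diets in KO islets (log2 fold change 0.33, SE 0.16, edgeR adjusted p = 0.891).

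Across the 19 Clec16a islet libraries Pdss1 ran from 1.70 to 3.68 CPM, with 35 to 144 counts. Coq4 ran from 12.1 to 17.8 CPM, Coq7 from 11.9 to 16.4 and Coq3 from 2.95 to 4.68. Coq2 on RFD was spread widely, at 40.7 ± 9.33 CPM (SD, n = 4) for controls and 38.3 ± 12.5 CPM (SD, n = 4) for KO. Endothelial markers were called higher in Clec16a KO islets, 6 of 7 on RFD and 7 of 7 on HFD, beside members that were not called. On HFD, KO replicate 4 stood apart with an endothelial sum of 418 CPM. The other KO libraries had 652 to 731 CPM and controls 364 to 469 CPM.

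**Figure D2:**
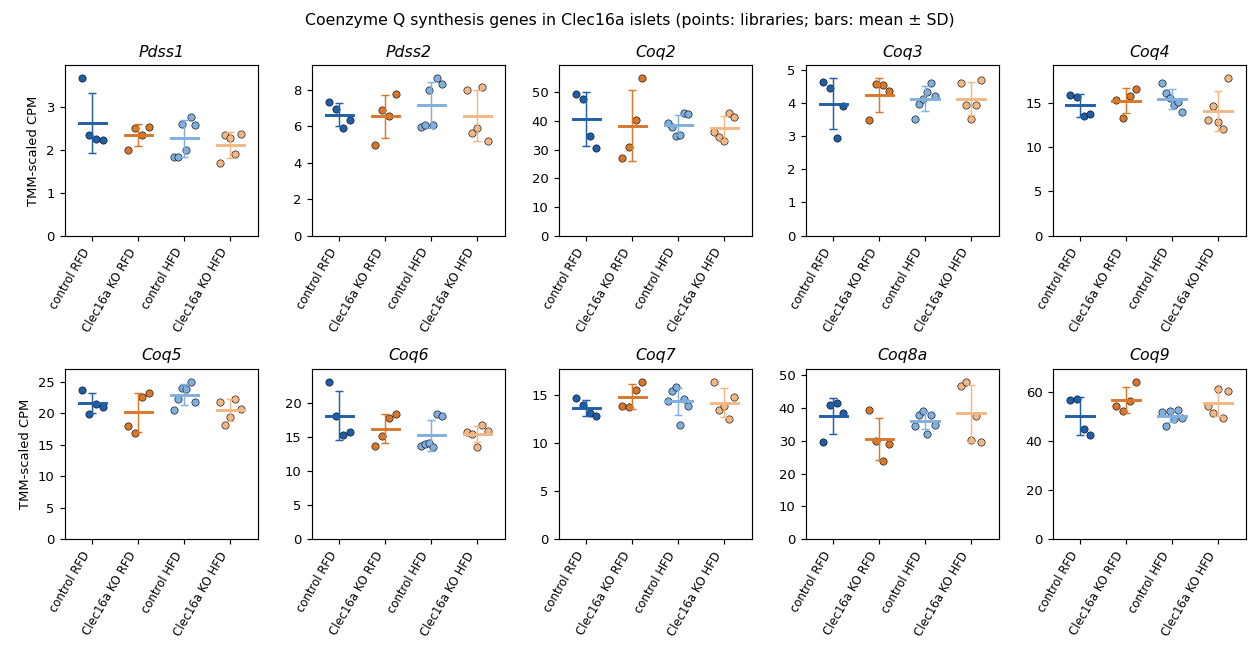
Levels of the 10 members in the Clec16a islets, in TMM-scaled CPM, by diet and genotype. Points are libraries, horizontal bars means and error bars SD. The KO and control points overlap on both diets for Coq3, Coq5 and Coq8a.

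Livers labelled Mfn DKO were set against control livers, and no member was called by edgeR (0 of 10, with 9.87% of all genes called, 0 members at an unadjusted p of 0.05 and 0 by the Wald test of DESeq2). Log2 fold changes ran from -0.39 (SE 0.45) for Coq8a to 0.17 for Pdss1 and Pdss2. Pdss1 stood at 3.70, 4.08, 3.91 and 3.64 CPM in Mfn DKO and at 2.70 to 3.87 CPM in 6 controls. Coq3 stood at 26.4, 23.6, 30.5 and 22.7 CPM against 20.05 to 26.9 CPM, and Coq4 at 6.31, 8.13, 7.50 and 7.40 CPM against 6.57 to 8.42 CPM. All of these ranges overlapped.

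Tfam KO livers were then compared with the same controls. Pdss1, a subunit of the tail-building enzyme, and Coq4, which the ring-modifying complex needs, rose, and no member was called lower by edgeR. These were 2 of 10 members, with 29.3% of all genes called and 18.1% called higher, so the members' share lies near the background. The Wald test of DESeq2 called 4 members, Coq8a and Coq9 among them as lower. The members' median log2 fold change was 0.14, beside 0.03 over all genes tested, and 8 of 10 were positive.

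Pdss1 had a lowest, median and highest value of 2.70, 3.45 and 3.87 CPM in controls, and 5.24, 8.46 and 3.24 CPM in Tfam KO livers. Replicates 1 and 2 lay above all controls and replicate 3 within them. The change was 1.66-fold (log2 fold change 0.73, SE 0.23, edgeR adjusted p = 0.0325). It was 0.98 (SE 0.19, edgeR adjusted p = 0.00131) without KO replicate 3 and 0.32 (edgeR adjusted p = 0.302) without KO replicate 2, which holds the highest value. The call was also lost without KO replicate 1 or control replicate 1, 3, 4 or 5 (edgeR adjusted p = 0.0514 to 0.0629).

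Coq4 had 6.57, 7.03 and 8.42 CPM as lowest, median and highest in controls, and 10.9, 11.1 and 8.09 CPM in Tfam KO livers. Again replicates 1 and 2 lay above all controls and replicate 3 within them. The change was 1.39-fold (log2 fold change 0.48, SE 0.14, edgeR adjusted p = 0.0209), and 0.59 (SE 0.13, edgeR adjusted p = 0.00334) without KO replicate 3. The call was lost without KO replicate 1 (edgeR adjusted p = 0.0823) or 2 (0.0981). Trub2, a pseudouridine synthase gene that shares exonic bases with Coq4 on the other strand, rose by 0.46 (SE 0.15, edgeR adjusted p = 0.0306), from 9.08 to 12.9 CPM in controls to 14.2, 19.4 and 12.3 CPM, and reads of the pair could not be told apart in the shared bases.

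Coq8a was spread widely in liver. Controls had 110.3, 198 and 288 CPM as lowest, median and highest, and Tfam KO livers 72.1, 20.2 and 161 CPM. Replicates 1 and 2 lay below all 6 controls and replicate 3 among them. The change was not called with all libraries (log2 fold change -1.25, SE 0.51, edgeR adjusted p = 0.0811). Without KO replicate 3 it was called at -2.14 (SE 0.52, edgeR adjusted p = 0.00587), and the Wald test of DESeq2 called it with all libraries (-1.27, SE 0.48, DESeq2 adjusted p = 0.0276).

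Coq7, the hydroxylase before the last methylation, had 59.2, 55.7 and 37.5 CPM in Tfam KO and 24.6, 35.5 and 44.0 CPM as lowest, median and highest in control livers. The change of 0.56 (SE 0.21) was not called (edgeR adjusted p = 0.0635). Coq3 had 32.1, 43.8 and 25.2 CPM against 20.05, 26.1 and 26.9 CPM in controls, a change of 0.42 (SE 0.16, edgeR adjusted p = 0.0583). Coq5 had 48.6, 43.1 and 33.6 CPM against 34.6, 36.5 and 40.5 CPM (0.17, SE 0.11, edgeR adjusted p = 0.258). In Coq3, Coq5 and Coq7 alike, replicates 1 and 2 lay above all controls and replicate 3 did not. Those controls pool libraries high and low in Xist, and Tfam KO replicates 2 and 3 were high in it. For Coq7, replicate 3 lay above the controls high in Xist. Coq9, which encodes the lipid-binding partner of Coq7, had 111, 108 and 114 CPM, below all 6 controls at 120.5 to 140.2 CPM, and was not called (-0.24, SE 0.10, edgeR adjusted p = 0.0716). The Wald test of DESeq2 called it (-0.26, DESeq2 adjusted p = 0.0107), as did edgeR over genes with at least 10 counts in every library (-0.25, edgeR adjusted p = 0.0491). Coq2 at 50.2 to 55.1 CPM, Coq6 at 17.1 to 20.5 CPM and Pdss2 at 9.57 to 15.7 CPM overlapped with controls at 46.1 to 54.0, 15.5 to 19.98 and 9.19 to 12.8 CPM. Of the 8 uncalled members, 4 had an unadjusted p under 0.05.

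Without Tfam KO replicate 3, 6 of 10 members were called, with 41.8% of all genes called: Pdss1, Coq3 (0.57, edgeR adjusted p = 0.00837), Coq4, Coq5 (0.29, 0.0412) and Coq7 (0.71, 0.0232) higher and Coq8a lower. Without KO replicate 1 or KO replicate 2 instead, 0 members were called. Each of these fits leaves 2 KO libraries. Replicate 3 was singled out by its likeness to controls in these data, so leaving it out lends the calls no support. Against Mfn DKO livers no member was called with all libraries (0 of 10 by edgeR, with 0.294% of all genes called and 4 members at an unadjusted p of 0.05), and 5 were called without that replicate, with 24% of all genes called, among them Pdss1 at 0.83 and Coq8a at -1.73. The hepatocyte marker sum moved with these values, at 59200 and 22400 CPM in replicates 1 and 2, and 3 of 8 hepatocyte markers were called lower against controls. Its part in the members' values was not tested. With library totals and no TMM the median of all genes moved up by 0.43, 7 members were called higher, where 42.6% of all genes were, and the calls over all genes shifted from 3073 higher and 1919 lower to 7246 and 905.

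Among control livers, Coq8a and Coq7 split with Xist. Coq8a stood at 288, 257 and 237 CPM in the 3 libraries low in Xist and at 110.3, 152 and 159.5 CPM in the 3 high in it, and Coq7 at 42.6, 41.5 and 44.0 against 29.5, 24.6 and 24.7 CPM. Neither pair of ranges overlapped, which was noticed in the values and not tested. In Mfn DKO livers Coq8a did not follow Xist, at 159 and 129.5 CPM in the libraries low in it and 103 and 219 CPM in those high in it. With the Xist level as a covariate 4 members were called higher in Tfam KO livers, where 18.5% of all genes were, Coq3 (0.47, edgeR adjusted p = 0.0425) and Coq7 (0.68, 0.0162) beside Pdss1 and Coq4.

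**Figure D3:**
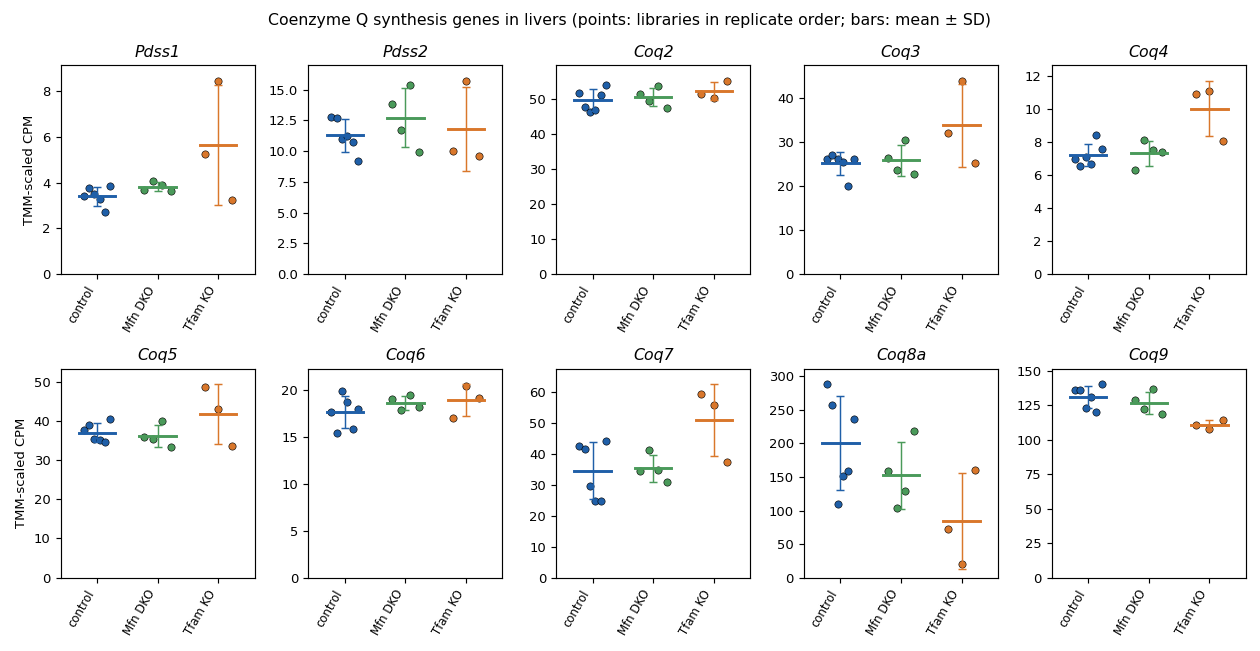
Levels of the 10 members in the livers, in TMM-scaled CPM, by group, with points for libraries in the order of their replicate numbers, horizontal bars for means and error bars for SD. Tfam KO replicate 3, the rightmost orange point, lies within the control range for Pdss1, Coq4 and Coq8a, where replicates 1 and 2 lie outside it. That range pools controls high and low in Xist.

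The paralogue Coq8b was set beside Coq8a in every library. In Tfam islets Coq8b fell by 0.35 on the log2 scale (SE 0.06, edgeR adjusted p = 0.000401): female controls had 27.9, 25.4, 25.1, 28.0 and 24.3 CPM and female KO islets 21.6, 20.7, 19.2 and 19.6 CPM, with no overlap. Without TMM the change was -0.14 (edgeR adjusted p = 0.0856). In livers Coq8b had 11.5, 15.1 and 17.4 CPM as lowest, median and highest in controls, 23.5, 32.3, 19.7 and 17.8 CPM in Mfn DKO, and 38.5, 38.1 and 17.9 CPM in Tfam KO. All libraries of both knockouts lay above all 6 controls. The change was called in Tfam KO (log2 fold change 1.11, SE 0.23, edgeR adjusted p = 0.0054) and not in Mfn DKO (0.67, SE 0.22, edgeR adjusted p = 0.0695).

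As a ratio of TPM within a library, Coq8a stood at 13.8 times Coq8b in the median control liver (6.69 to 24.0), at 7.05 in Mfn DKO (3.37 to 13.0) and at 1.98, 0.561 and 9.47 in the 3 Tfam KO livers. In Tfam islets the ratio went the other way: 1.24 to 2.03 in female controls and 2.22 to 2.71 in female KO, and 0.620 to 1.26 in male controls and 1.73 to 1.88 in male KO. The ranges did not overlap within either sex. Coq8b did not fall in TPM, which is not TMM-scaled. Its median was 9.60 in female control and 9.95 in female KO islets, and 9.57 and 10.01 in male ones, with overlapping ranges. In the 19 Clec16a islet libraries Coq8a was below Coq8b throughout, with group medians from 0.562 to 0.916. The ratios are descriptions and were not tested.

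**Figure D4:**
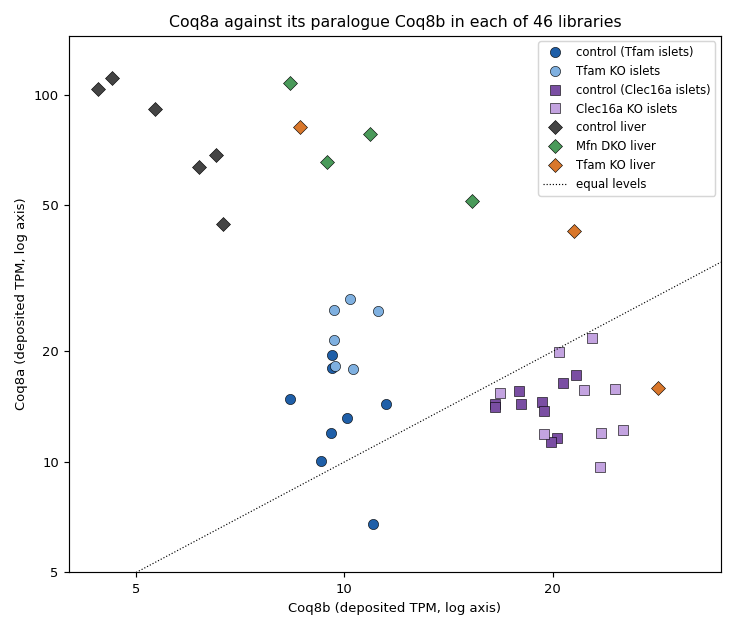
Coq8a against Coq8b in deposited TPM, both axes logarithmic, 1 point per library. The dotted line marks equal levels. Control livers lie at the upper left with a median ratio of 13.8, and Tfam KO liver replicate 2 is the only liver below the line, at 0.561.

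Set side by side, the members called were Coq3 and Coq5 in Tfam islets and Pdss1 and Coq4 in Tfam KO livers. The log2 fold change of Coq3 was 0.51 in islets and 0.42 in liver, and that of Coq5 was 0.43 in islets and 0.17 in liver. Pdss1 was 0.16 in islets and 0.73 in liver. Whether these changes differ between tissues was not tested.

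**Figure D5:**
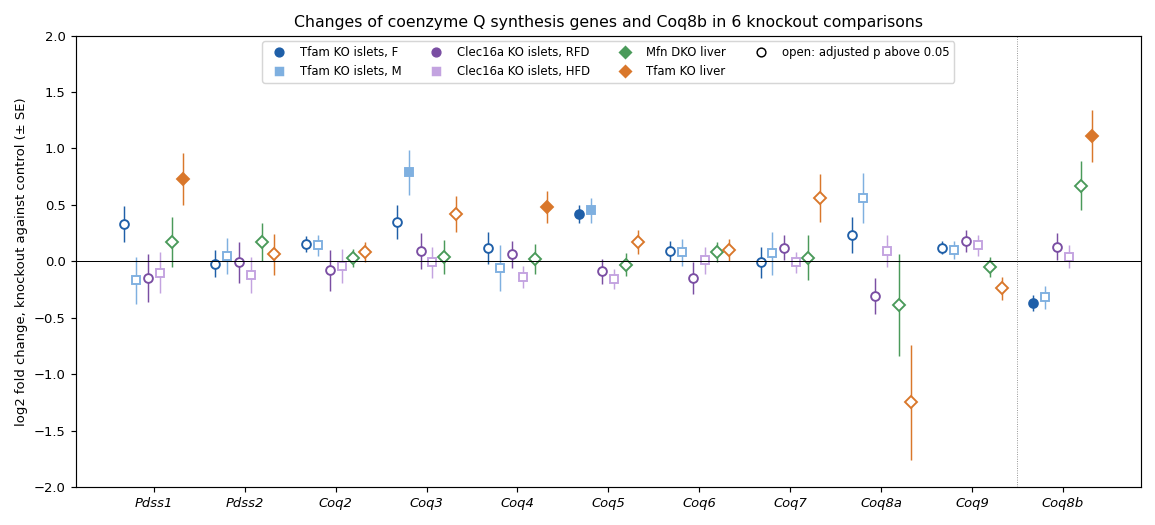
Log2 fold change of each member and of Coq8b against control in 6 knockout comparisons, with the SE of the fit as error bars. Filled symbols were called at an edgeR adjusted p of 0.05 or less: Coq5 in both sexes and Coq3 in males among the Tfam islets, Pdss1 and Coq4 in Tfam KO livers, and Coq8b in female Tfam islets and in Tfam KO livers.

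Genes around the pathway were counted from lists chosen for their function. With all libraries, the share of all genes called was 20.9% in Tfam islets, 9.87% in Mfn DKO livers and 29.3% in Tfam KO livers. In Clec16a KO islets it was 7.52% on RFD and 9.58% on HFD. Of 10 accessory genes, 9 were tested in Tfam islets and 3 were called: Coq8b, Coq10b, whose protein binds and carries coenzyme Q, at -0.78 (edgeR adjusted p = 0.00304), and Hpdl, an enzyme of ring precursor supply, at 1.11 (SE 0.32, edgeR adjusted p = 0.021) on 2 to 27 counts per library. Hpdl in islets falls outside the rule for naming genes and was named after its values were seen. The same holds for Coq10a, Fdps, Sdha, Sdhc, Prodh, the liver value of Sqor and the Clec16a islet values of Uqcrq below. Coq10b had 12.9 to 31.6 CPM in female and 34.8 to 43.6 CPM in male controls, and 11.7 to 15.1 and 18.8 to 20.6 CPM in KO islets. In Tfam KO livers 3 of 10 were called, near the 29.3% of all genes, with Coq8b and Hpdl higher and Coq10a lower (-0.53, edgeR adjusted p = 0.0188). Hpdl had 1.54, 2.26 and 0.224 CPM there and 0.0528 to 0.517 CPM in controls (log2 fold change 2.30, SE 0.61, edgeR adjusted p = 0.0152, and 1.70 with 0.104 without KO replicate 2), so replicate 3 again lay among the controls. The accessory count in Tfam KO livers was 4 without KO replicate 3, 1 without KO replicate 2 and 6 without TMM, and in Tfam islets it was 5 without female control replicate 4 and 6 without TMM.

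The 9 genes of isoprenoid supply, from the mevalonate pathway that feeds the tail, had 0 calls by edgeR and 0 by DESeq2 in Tfam islets, Mfn DKO livers and Tfam KO livers, with 0, 0 and 1 genes at an unadjusted p under 0.05. Without Tfam KO liver replicate 3, 5 of 9 were called there, all lower, with a median log2 fold change of -1.58, where 41.8% of all genes were called. In Tfam islets 4 of 9 were called higher without TMM, and 1 without female control replicate 4. In Tfam KO livers all 9 log2 fold changes were negative with a median of -0.70, and 7 of 9 were negative, with a median of -0.41, without TMM. In Clec16a KO islets on RFD 3 of 9 were called, all lower, among them Hmgcs1 and Fdps (-0.91, edgeR adjusted p = 0.0425), with a median of -0.74 beside 0.00 over all genes tested. Hmgcs1, which makes HMG-CoA, stood at 57.5 ± 13.6 CPM (SD, n = 4) among controls and 30.7 ± 1.39 CPM (SD, n = 4) among KO libraries (log2 fold change -0.90, SE 0.21, edgeR adjusted p = 0.013). The call of Hmgcs1 was lost without control RFD replicate 1 (-0.73, edgeR adjusted p = 0.051), where 1 of the 9 was called. On HFD 0 of 9 were called by edgeR and 1 by DESeq2, with 1 at an unadjusted p under 0.05, and edgeR called 1 lower without control HFD replicate 1 and 2 lower without KO HFD replicate 4.

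Of the dehydrogenases that reduce coenzyme Q, 9 of the 10 listed symbols were found. The entry not found, Choldh, is not a symbol in these data, where Chdh is. That gene was left out through the list and not for want of data. In Clec16a KO islets 2 of 9 were called on RFD and 3 of 9 on HFD, all lower. Sqor and Gpd2 were called on both diets, and Sdha of complex II on HFD (-0.27, edgeR adjusted p = 0.0387). Sqor, which passes electrons from sulfide, stood at 52.5 ± 2.35 and 37.2 ± 3.02 CPM (SD, n = 4 each) on RFD (log2 fold change -0.50, SE 0.12, edgeR adjusted p = 0.0168) and fell by 0.50 on HFD (SE 0.10, edgeR adjusted p = 0.0048). Gpd2, the glycerol-3-phosphate dehydrogenase of the mitochondrial shuttle, fell by 0.96 on RFD (edgeR adjusted p = 0.0279) and by 0.85 on HFD (edgeR adjusted p = 0.0208). Its RFD ranges, 76.9 to 114 CPM in controls and 45.8 to 61.0 CPM in KO, did not overlap. Its HFD ranges, 78.0 to 97.1 and 27.8 to 95.2 CPM, did. Its RFD call was lost without control replicate 1, 3 or 4 or KO replicate 2, 3 or 4 (edgeR adjusted p = 0.0565 to 0.0834) and its HFD call without KO replicate 1, 2, 3 or 5 (0.0542 to 0.0701). The RFD call of Sqor was lost without KO replicate 2 (0.0521), where 0 of the 9 were called.

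In Tfam islets 0 of these 9 dehydrogenases were called by edgeR or DESeq2, with 1 at an unadjusted p under 0.05, and 5 were called higher without TMM. The count by edgeR was 1 without female control replicate 3 or 4. In Tfam KO livers 5 of 9 were called, where 29.3% of all genes were, with Dhodh higher and Etfdh, Sqor, Prodh and Sdhc lower. The count was 6 without KO replicate 3, 2 without KO replicate 1 or 2, and 2 with only the compared groups. Dhodh, of pyrimidine synthesis, rose by 0.53 (SE 0.12, edgeR adjusted p = 0.00606), from 11.3 to 13.1 CPM in controls to 15.2 to 20.6 CPM. Etfdh, which takes electrons from fatty acid oxidation, fell by 0.69 (SE 0.16, edgeR adjusted p = 0.00735), from 287 to 349 CPM to 175 to 231 CPM. Without TMM its change was -0.27 and was not called (edgeR adjusted p = 0.157). Sqor had 231 to 293 CPM in controls and 83.5 to 229 CPM in KO, Prodh 195 to 494 and 55.0 to 243 CPM, and Sdhc 233 to 257 and 136 to 232 CPM. Of the 9 nuclear subunits of complex III, which oxidizes coenzyme Q, 2 were called in Tfam islets, near the 20.9% of all genes. These were Cyc1 at 0.32 (SE 0.06, edgeR adjusted p = 0.00127) and Uqcrq at 0.57 (SE 0.16, edgeR adjusted p = 0.0166). In Tfam KO livers 0 were called (2 at an unadjusted p under 0.05 and 2 called lower by DESeq2). There 4 were called lower without KO replicate 3, and 4 higher without TMM. The call of Uqcrq was lost without KO male replicate 2 (0.50, edgeR adjusted p = 0.0552), and without TMM 4 were called in islets. In Clec16a KO islets edgeR called 0 of the 9 complex III genes on either diet, with 1 at an unadjusted p under 0.05 on each. DESeq2 called 1 higher on each diet, as did edgeR without TMM. Uqcrq had means of 47.1 CPM in controls and 76.4 CPM in Clec16a KO islets on RFD, and 50.4 and 73.5 CPM on HFD. The 4 lists had 0 calls in Mfn DKO livers by edgeR, where DESeq2 called 3 complex III genes lower and 1 accessory gene higher. With only the compared groups edgeR called 4 dehydrogenases and 3 complex III genes lower and 2 accessory genes higher there. That fit called 4338 genes in all, against 1681 by edgeR over all liver groups, and DESeq2 also called more than the latter.

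For Coq3 and Pdss1, the 2 members with the largest called changes in a knockout, the genes of most like pattern were found as those with the smallest root-mean-square difference of log2 CPM over the 11 group means, centred within each experiment, among 14503 genes. For Coq3 these were Chchd1 at 0.0628, Apopt1 at 0.0632 and 4921524J17Rik at 0.0821, beside a median of 0.277 over all genes. For Pdss1 they were Dync1h1 at 0.0516, Nbea at 0.0557 and Prpf40b at 0.0626, beside a median of 0.246. The values describe likeness over group means and were not tested. The rule took the largest called changes in any comparison, and Coq8a, at -0.78 in the added comparison between the sexes of controls, was left out here.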

How the data were processed

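RNA was sequenced from 46 mouse libraries in 11 groups. Per the file headers, each table holds raw counts, TPM and CPM for 55487 genes, all made by the authors. The submitters' processing notes name STAR 2.6.1b, RSEM 1.3.1, featureCounts, DESeq2, FastQC, MultiQC and the build GRCm38, without their roles, and the annotation release is not given in the sources used here. GENCODE M21, which gave positions and exon overlaps, holds 55141 of these identifiers. The deposited counts, all whole, were not rescaled before testing. Deposited TPM were used only for order within a library and the Coq8a to Coq8b ratio. The authors' deposited CPM was not used: CPM in the text was computed from counts on TMM-scaled library sizes.

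Groups came from the labels. Tests were made within 1 experiment at a time, after filterByExpr and TMM, by the edgeR 4.0.16 quasi-likelihood F-test in R 4.3.3, with Benjamini-Hochberg adjustment over all genes tested and calls at 0.05. Fits had 1 mean per group, and the Tfam islet comparison over both sexes had sex as an additive term. The SE of a log2 fold change was its size over the square root of F. There were 12 comparisons and 1 more, between the sexes of control islets, added after values were seen. The procedure was tested on simulated data. Of 81 replicate pairs 0 were identical. Replicate numbers did not pair the libraries: residual profiles of same-numbered libraries had a median correlation of 0.0653 in Tfam islets, -0.0163 in Clec16a islets and 0.0873 in livers. Alternatives were the size factors and the Wald test of DESeq2 1.42.0, no filter, at least 10 counts in every library, each library left out, the replicate number as a block, only the compared groups, no sex term, and covariates for the acinar score, lane or Xist level. Library totals without TMM were added after seeing the data. Promoter windows came from RefSeq on GRCm38.p6.

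The 10 members and all lists were chosen with earlier results of these data known. By rule every member is named, with at most 2 called genes per list and comparison, by smallest adjusted p, Coq8b, the targeted genes and the 3 genes nearest in pattern. Reads carry no molecular identifiers, so depth limits counting error only. Of the genes the rule names, 1 is not reported here. No genes of other functions are described.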

Additional observations from a re-analysis of the deposited data

Results flagged for a closer look

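Of 80 groups of member values with 4 to 10 libraries, 3 had a library far from the others by Dixon's 95% criterion, and chance alone gives about 1 in 20. Coq3 in control liver replicate 5 was lowest at 20.05 CPM, beside 25.4 to 26.9 CPM in the other 5. Coq9 in female Tfam KO islets was highest in replicate 1 at 45.7 CPM, beside 42.3 to 42.4 CPM in the other 3. Pdss1 in Clec control islets on RFD was highest in replicate 1 at 3.68 CPM, beside 2.23 to 2.36 CPM in the other 3.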

How the results depend on the processing

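The calls of the members, of Coq8b and of the 2 genes with the smallest adjusted p per list and comparison kept their direction under every alternative run. Other named calls, those of the targeted genes and Trub2 among them, were not followed in this way. The number of members called stayed at 0 under each alternative, each left-out library included, for the interaction of genotype with sex, the 5 Clec16a comparisons and Mfn DKO livers. With library totals and no TMM the members called were 6 in Tfam islets over both sexes, 7 in females, 5 in males, 0 between the sexes of controls, 7 in Tfam KO livers and 1 in Tfam KO against Mfn DKO livers. Of 19752 genes tested in islets, 6825, 4766 and 3169 were called over both sexes, in females and in males. Of 17024 genes tested in livers, 8151 were called in Tfam KO and 1226 against Mfn DKO. That scaling moved the median of all genes up by 0.19 to 0.43 in the livers and by 0.20 to 0.21 in the Tfam islets. On HFD it moved the Clec16a calls over all genes from 970 higher and 683 lower to 1775 and 352. In Tfam KO livers 1 member was called with no filter on low counts, 0 with only the compared groups, 4 with the Xist level as covariate and 4 by the Wald test, and between the sexes of controls 0 with only the compared groups. Leaving out each library gave 2 to 4 members in Tfam islets over both sexes (4 without female control replicate 4), 0 to 1 in males, 0 to 1 between the sexes of controls, 0 to 6 in Tfam KO livers and 0 to 5 against Mfn DKO livers. All genes called in these fits ran from 3096 to 4995 in Tfam islets over both sexes, 2504 to 7330 in Tfam KO livers and 24 to 4204 against Mfn DKO livers. The causes were not tested. Pdss1 had as few as 35 counts in a library.

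With the replicate number as a block, 1 member was called in male Tfam islets and 0 in Tfam KO livers, and the numbers do not pair the libraries. The block gave 169 genes in Mfn DKO livers, 395 in Tfam KO livers, 6 between them, 975 in Clec16a KO islets on HFD, 3 between diets in controls and 36 for the interaction with sex, against 1681, 4992, 50, 1653, 7 and 0. The block changed no other count of members.

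Over all genes, library totals without TMM gave 6825 calls in Tfam islets, 4766 in females, 3169 in males, 182 between the sexes of controls, 8151 in Tfam KO livers and 1226 between the knockout livers, against 4119, 2142, 1764, 303, 4992 and 50. The Wald test gave 2708 in male Tfam islets, 34 and 20 for the interactions with sex and diet, 985 between the sexes of controls, 54 and 42 between diets, 2870 in Mfn DKO livers and 1087 between the knockout livers. Only the compared groups gave 12 between the sexes of controls, 0 between diets in KO islets, 4338 in Mfn DKO, 3228 in Tfam KO and 7 between them. No filter gave 30 for the interaction with sex and 6 between diets in KO islets, and at least 10 counts gave 27 between the knockout livers. The acinar covariate gave 4 and 0 between diets in control and KO islets, and the lane 3 in controls.

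Leaving out each library gave these ranges of calls over all genes where a value lay more than 1.5 times from that with all libraries: 1336 to 2626 in female and 578 to 1543 in male Tfam islets, 0 to 1 for the interaction with sex, and 15 to 362 between the sexes of controls. In Clec16a KO islets they were 523 to 1224 on RFD (1298 with all libraries) and 786 to 3369 on HFD, and between diets 3 to 12 in controls and 0 to 31 in KO islets (2 with all libraries, and 1 without TMM). In livers they were 686 to 1444 for Mfn DKO, 2504 to 7330 for Tfam KO and 24 to 4204 between them, the highest without Tfam KO replicate 3. Without TMM the split of higher against lower calls went from 1318 and 824 to 4444 and 322 in female and from 1035 and 729 to 2860 and 309 in male Tfam islets, and from 891 and 790 to 1654 and 357 in Mfn DKO livers. It went from 18 and 32 to 1140 and 86 between the knockout livers and from 149 and 154 to 70 and 112 between the sexes of controls.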
